A study of Homo sapiens with 12 samples.

Results

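The S100 genes were described from RNA sequencing of 12 libraries of T24 cells, a long-established human line derived from a bladder carcinoma. The 9 members were S100A2, S100A3, S100A4, S100A6, S100A10, S100A11, S100A13, S100A16 and S100P, found by gene symbol among the 60504 genes of each deposited table. Each symbol matched 1 gene. Values are TPM, the transcript abundance given by Stringtie per transcript length and scaled to the same total in every library. The study asked how the U11 small nuclear RNA, a component of the minor spliceosome, affects gene expression in this line. In the knockout comparison, 2 libraries of cells labelled as U11 knockout were compared with 2 T24 libraries labelled untreated. The former are called knockout-labelled libraries here. According to the methods of the study, the knockout cells came from monoclonal selection after transfection with Cas9 and a pair of guide RNAs, with a choice by knockout efficiency. In the overexpression comparison, 6 libraries of T24 cells labelled as U11 overexpression, made by stable transfection of a U11 plasmid and monoclonal selection, were compared with 2 other T24 libraries labelled untreated. These 6 libraries carried the line labels 79, 86 and 87, with 2 libraries each, and what the labels stand for is not given in the sources used here. The labels do not say whether 2 libraries of a group came from separate cultures, so the tests measure the spread between libraries, which may be technical.

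S100 proteins are small EF-hand proteins that mostly form dimers. Calcium binding exposes a surface through which they bind target proteins, among them annexins, cytoskeletal proteins and, outside the cell, the receptor AGER (RAGE). Most human S100 genes lie in a cluster on chromosome 1, and several of them are known for high expression in epithelial tumors, including those of the bladder.

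In the deposited coordinates (hg38), 8 members lay on the minus strand of chromosome 1. S100A10 (151982915 to 151994390) and S100A11 (152032506 to 152047907) lay apart from the other 6, which spanned S100A6 (153534599 to 153536244), S100A4 (153543613 to 153550136), S100A3 (153547329 to 153549372), S100A2 (153561108 to 153567890), S100A16 (153606886 to 153613145) and S100A13 (153618787 to 153631360). S100P lay on the plus strand of chromosome 4 (6693069 to 6697170). The S100A3 entry, 2044 bases long, lay wholly inside the S100A4 entry on the same strand, so reads of this pair could have been split between them. S100A13 shared 5029 bases with RP1-178F15.5 on its own strand and 3435 bases with S100A1 on the other strand, S100A6 shared 517 bases with BX470102.3, and S100A11 shared 10269 bases with AL591893.1, both on the other strand.

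All 9 members were found by symbol in the RefSeq promoter table (GRCh38.p14), which gives the 250 bases before and the 50 bases after a start site. The promoters of the 3 genes called higher in the knockout comparison and of the gene called lower in line 87 are shown, from 5′ to 3′ on the minus strand. They lie at chr1:153535942-153536241 (S100A6), chr1:152036955-152037254 (S100A11), chr1:153565795-153566094 (S100A2) and chr1:153549209-153549508 (S100A3). The S100A3 promoter lies inside the S100A4 entry. Capitals mark exact matches on either strand to the AP-1 consensus TGANTCA, the GC box GGGCGG, the CCAAT box (by those letters), the TATA box TATAAA or an NF-kappa B consensus (GGG, any 2 bases and TTTCC).
S100A6: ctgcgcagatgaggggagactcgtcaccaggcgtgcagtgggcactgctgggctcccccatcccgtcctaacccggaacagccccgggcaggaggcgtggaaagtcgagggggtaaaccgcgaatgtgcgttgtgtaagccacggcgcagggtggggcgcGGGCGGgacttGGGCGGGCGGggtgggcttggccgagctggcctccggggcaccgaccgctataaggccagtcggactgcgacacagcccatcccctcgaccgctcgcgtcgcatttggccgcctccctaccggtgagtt
S100A11: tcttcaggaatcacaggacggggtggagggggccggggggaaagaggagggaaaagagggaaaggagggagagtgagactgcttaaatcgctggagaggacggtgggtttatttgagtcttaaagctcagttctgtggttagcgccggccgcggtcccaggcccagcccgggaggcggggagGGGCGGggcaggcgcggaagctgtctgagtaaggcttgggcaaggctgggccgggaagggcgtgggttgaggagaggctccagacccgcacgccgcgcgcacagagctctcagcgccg
S100A2: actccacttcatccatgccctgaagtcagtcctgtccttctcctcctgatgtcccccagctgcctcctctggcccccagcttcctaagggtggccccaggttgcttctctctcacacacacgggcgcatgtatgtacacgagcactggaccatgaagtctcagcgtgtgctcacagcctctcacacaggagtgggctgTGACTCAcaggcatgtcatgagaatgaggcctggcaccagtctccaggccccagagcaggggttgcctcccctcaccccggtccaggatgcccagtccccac
S100A3: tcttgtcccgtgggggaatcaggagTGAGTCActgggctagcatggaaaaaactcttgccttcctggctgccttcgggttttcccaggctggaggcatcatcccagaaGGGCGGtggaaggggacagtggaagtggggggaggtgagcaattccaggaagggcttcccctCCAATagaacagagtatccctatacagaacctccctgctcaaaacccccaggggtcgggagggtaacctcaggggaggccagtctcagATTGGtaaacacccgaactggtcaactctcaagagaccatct

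S100A6 held 3 GC boxes, of which the last 2 overlap, and S100A11 held 1. S100A2 held a single match, TGACTCA, 52 bases before the start site. S100A3 held TGAGTCA 225 bases before the start site, 1 GC box and 2 CCAAT boxes, 1 of them on the other strand. The table lists 13 promoters for the 9 members, among them a second one for S100A2 that held none of these letters. The AP-1 letters were found in 2 of the 13 (those of S100A2 and S100A3 shown) and in 7.71% of all 35116 promoters. The GC box was found in 6 of the 13 and in 45% of all promoters, the CCAAT box in 3 and 34.6%, the TATA box in 3 and 11.5%, and the NF-kappa B letters in 0 and 1.91%. These motifs were chosen with the expression values known, and a match is a description of the letters only.

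The aligned bases behind a library ranged from 9.07 to 15.3 gigabases. U11, as the sum of its 2 entries in the tables, had 21.4 and 23.8 TPM in the 2 controls of the knockout comparison. It had 31.6 and 37.4 TPM in the knockout-labelled libraries (exact permutation test, two-sided, p = 0.333, the smallest possible with 2 against 2). These TPM values run against the label, but how well the libraries captured U11 was not tested. The study judged knockout efficiency by quantitative PCR, a measure that is not part of these data. In the overexpression comparison U11 had 0.03 and 0.62 TPM in the controls, 0.18 and 0.41 in line 79, 3.98 and 3.72 in line 86, and 61.9 and 53.6 in line 87 (exact permutation test of the 6 against the 2, two-sided, p = 0.286). The entries differed between the comparisons. ENSG00000274978 held all of the U11 signal in the knockout comparison, where ENSG00000270103 was listed at 0, while ENSG00000270103 held most of it in the overexpression comparison, with a mean of 20.1 TPM against 0.309 in the controls. The HIST genes summed to 27662 to 34279 TPM in the 4 libraries of the knockout comparison and to 103 to 180 TPM in the other 8, so levels were compared only within a comparison. KRT7, KRT8, KRT18 and KRT19, keratins of simple epithelium, were at 90.3 TPM or above in all 12 libraries. CDH1 was at 0.155 TPM or below, and the highest value of UPK1A, UPK1B, UPK2 and UPK3A, the uroplakins of mature urothelium, was 0.437 TPM.

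S100A6 was the most abundant member in all 12 libraries, and S100A3, S100A4 and S100P were the least abundant. In the controls of the knockout comparison, S100A6 had 723 ± 9.77 TPM (mean ± SD, n = 2), followed by S100A11 with 220.3 ± 5.75, S100A13 with 184 ± 6.4, S100A2 with 155 ± 6.64, S100A10 with 154 ± 1.09 and S100A16 with 109 ± 34.6 TPM. The values of S100A2 and S100A10 overlapped there, so their order was not resolved. S100A3 had 4.72 ± 0.548 TPM and S100A4 had 2.33 ± 0.184 TPM. In the controls of the overexpression comparison, the order was S100A6 (1950 ± 76.8 TPM, n = 2), S100A11 (691 ± 25.5), S100A2 (587 ± 10.1), S100A10 (394 ± 7.56), S100A13 (393 ± 8.28), S100A16 (282 ± 30.5), S100A3 (12.5 ± 0.8) and S100A4 (7.1 ± 1.07). There the values of S100A10 and S100A13 overlapped. S100P, a member known from placenta and carcinomas, ranged from 0 to 0.391 TPM over the 12 libraries, was listed at 0 in 1 control, and did not pass the filter of 1 TPM in 2 libraries. The other 8 members passed it. The mean coverage per base behind these values was at least 377 for the 6 abundant members, 26.3 to 54.8 for S100A3, 9.56 to 24.7 for S100A4 and at most 2.87 for S100P, so the values of S100A4 and S100P rest on the fewest reads.

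**Figure D1:**
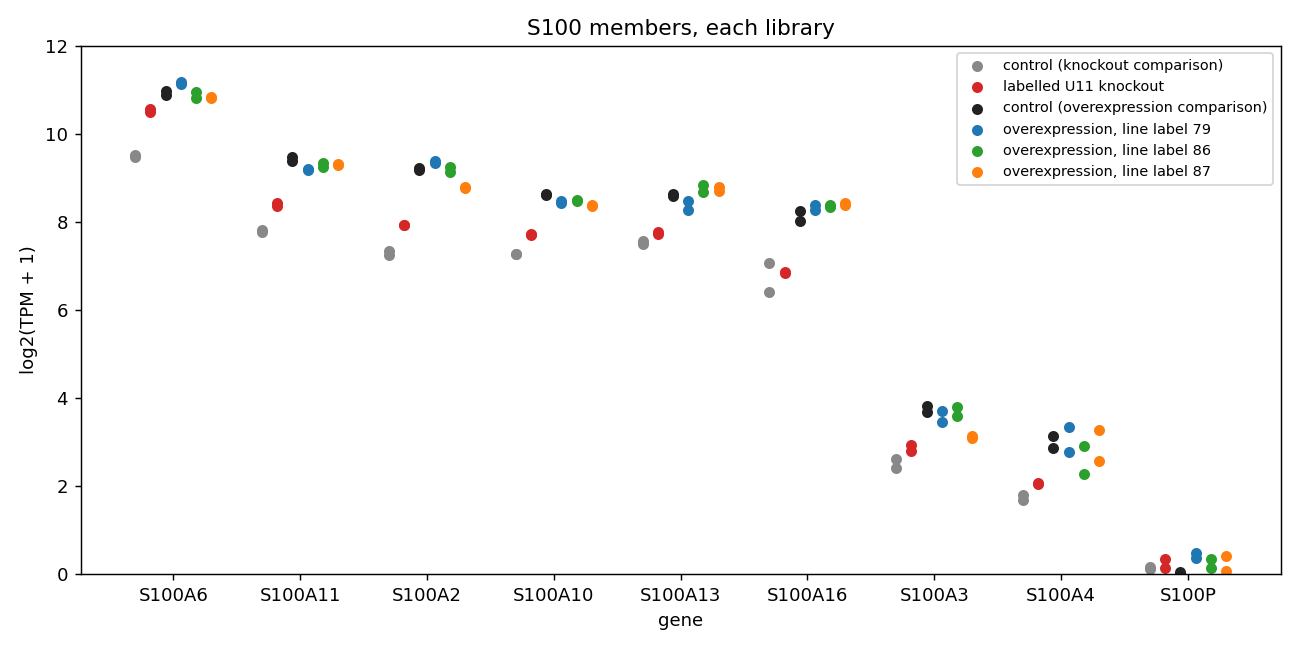
Each point is the level of a member in 1 library, as log2(TPM + 1), coloured by group. S100A6 lies highest in every group, the knockout-labelled libraries lie above their controls for every member shown but S100A16 and S100P, and S100P lies near 0.

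In the knockout-labelled libraries, S100A6, S100A2 and S100A11 rose. All 8 members tested lay above the controls on average, as did 63.7% of all genes tested (51.3% with median ratio scaling). S100A16 had -0.01 with median ratio scaling and had -0.22 without the second control. The largest change among the members was the 2.05-fold rise of S100A6 (calcyclin, which binds annexins and the ubiquitin ligase adaptor CACYBP). The 9 members together took 1598 and 1508 TPM in the controls and 2600.3 and 2624 TPM in the knockout-labelled libraries, a ratio of the means of 1.68. In bulk RNA, a change in RNA per cell and a change in the share of cells that express a gene cannot be told apart.

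S100A6 had 730.4 and 717 TPM in the controls and 1454 and 1510 TPM in the knockout-labelled libraries, so the groups did not overlap. Its log2 fold change on the log2(TPM + 1) scale was 1.03 ± 0.06 (SE), with an adjusted P of 0.00644 by limma over the 14356 genes tested. Only 1.92% of these genes had a higher log2 fold change. S100A6 made up 45.7% and 47.5% of the members' sum in the controls and 55.9% and 57.5% in the knockout-labelled libraries.

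S100A2, a nuclear member known from basal epithelial cells and as a target of p53, had 160.1 and 151 TPM in the controls and 245 and 243 TPM in the knockout-labelled libraries, a log2 fold change of 0.65 ± 0.08 (adjusted P = 0.0222). S100A11, which binds annexin A1, had 224 and 216 TPM in the controls and 347 and 328 TPM in the knockout-labelled libraries, with a log2 fold change of 0.61 ± 0.08 (adjusted P = 0.0228). Neither gene's groups overlapped. Both changes were close to the 1.5-fold threshold (a log2 value of 0.58). They fell under it when samples were scaled by the median ratio, with 0.53 for S100A2 (adjusted P = 0.0531) and 0.50 for S100A11 (adjusted P = 0.0494), while S100A6 remained above it at 0.92.

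S100A10, the partner of annexin A2 that has lost the ability to bind calcium, had 155 and 153 TPM in the controls and 212 and 209 TPM in the knockout-labelled libraries. Its log2 fold change of 0.45 ± 0.07 had an adjusted P of 0.0376 and was under the fold threshold. The ratio of S100A10 to its partner was 9.52 and 9.93 TPM per 100 TPM of ANXA2 in the controls and 12.3 and 11.3 in the knockout-labelled libraries.

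The log2 fold changes of the less abundant S100A3 and S100A4 lay below that of S100A10. They lay above those of S100A13 and S100A16, on a scale that understates changes of low genes. S100A3, a cysteine-rich member known from hair cuticle, had 4.34 and 5.11 TPM in the controls and 6.6 and 6.01 TPM in the knockout-labelled libraries (log2 fold change 0.35 ± 0.14, adjusted P = 0.164). S100A4, a binding partner of non-muscle myosin that is linked to metastasis, had 2.46 and 2.2 TPM against 3.13 and 3.22 TPM (0.33 ± 0.12, adjusted P = 0.162). The groups did not overlap for either gene, and neither difference passed the adjusted threshold.

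S100A13, which takes part in the release of FGF1 and IL1A from cells, had 188 and 179 TPM in the controls and 219 and 211 TPM in the knockout-labelled libraries (log2 fold change 0.23 ± 0.08, adjusted P = 0.14). Its share of the members' sum was 11.8% and 11.9% in the controls and 8.4% and 8.0% in the knockout-labelled libraries. S100A16, a widely expressed member, had 133 and 84.5 TPM against 114 and 115 TPM (0.10 ± 0.22, adjusted P = 0.788). It was the only member tested whose groups overlapped, and its 2 controls stood further apart than those of any other abundant member.

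By position on chromosome 1, the log2 fold changes were 0.45 for S100A10, 0.61 for S100A11, 1.03 for S100A6, 0.33 for S100A4, 0.35 for S100A3, 0.65 for S100A2, 0.10 for S100A16 and 0.23 for S100A13. Differences between neighbours were not tested.

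In total, 3 of the 8 members tested were called, which needed an unadjusted P below 0.05 together with at least a 1.5-fold change, and all 3 were higher. Among all genes tested, 11.8% were called and 8.61% were called higher. An unadjusted P below 0.05 was reached by 7 members, against 30.1% of all genes, and an adjusted P under 0.05 by 4 members, against 7.82%. With no filter on low values none of the 4 stayed under 0.05 (adjusted P = 0.0607 to 0.124), nor without either knockout-labelled library (0.114 to 0.198). The groups did not overlap for 7 of the 8, against 60.2% of all genes. The median log2 fold change was 0.40 over the 8 members and 0.11 over all genes tested, and relative to the latter S100A6 was higher by 0.93, S100A2 by 0.54, S100A11 by 0.50 and S100A10 by 0.34. Relative to it S100A16 had -0.004. Of the mesenchymal markers, VIM and ZEB1 were called higher by limma in the same comparison (log2 fold changes 0.76 and 0.59, adjusted P = 0.0144 and 0.0484). Of the epithelial markers, GATA3 was called higher (0.75, adjusted P = 0.0553) and KRT19 lower (-0.74, adjusted P = 0.0194). The part of these markers in the values of the members was not tested. The 6 leukocyte markers summed to 0.32 to 0.62 TPM and the 4 fibroblast markers to 0.81 to 1.48 TPM in these 4 libraries.

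**Figure D2:**
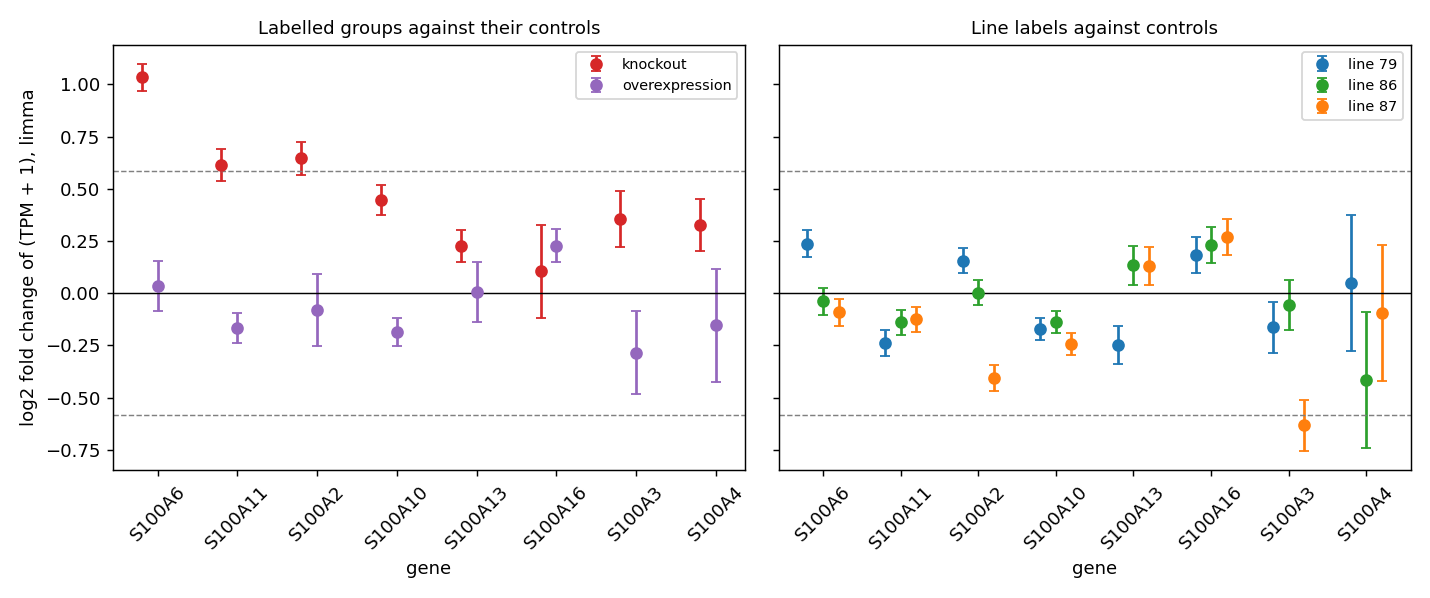
Log2 fold changes of the 8 members tested, on the log2(TPM + 1) scale, with the standard error from limma as bars. Dashed lines mark a fold change of 1.5. In the left panel S100A6, S100A2 and S100A11 lie above the line in the knockout comparison and no member crosses it in the overexpression comparison, and in the right panel S100A3 in line 87 lies below it.

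The transcripts of proteins that S100 members bind did not move in one direction with the members. Of 21 partners and receptors listed, 17 were tested in the knockout comparison, with 3 called higher and 2 called lower and a median log2 fold change of -0.03. Among all genes tested there, 11.8% were called and 8.61% were called higher. EZR (ezrin, which links membranes to actin and binds S100P) rose from a mean of 232 to 416 TPM (log2 fold change 0.84 ± 0.08, adjusted P = 0.0151). FGF1, a growth factor released with S100A13, rose from 3.26 to 7.22 TPM (0.95 ± 0.12, adjusted P = 0.0251). IL1A, a cytokine whose release also involves S100A13, fell from 16.8 to 4.59 TPM (-1.67 ± 0.15, adjusted P = 0.0131). Thus the transcripts of the 2 secreted partners of S100A13 moved in opposite directions in these libraries. Of 12 annexins, 10 were tested, with 2 called higher and 2 called lower. ANXA10, called lower, fell from a mean of 4.48 to 1.29 TPM (-1.25 ± 0.17, adjusted P = 0.0277). ANXA1, a partner of S100A11, had 77.4 and 131 TPM in the controls and 164 and 159 TPM in the knockout-labelled libraries (0.67 ± 0.25, adjusted P = 0.16), and without the first control the value was 0.30, below the threshold. ANXA4 rose from 12.6 to 19.8 TPM (0.61 ± 0.12, adjusted P = 0.0507). ANXA11, a partner of S100A6, fell from 49.9 to 32.7 TPM (-0.60 ± 0.14, adjusted P = 0.0693), and without the first knockout-labelled library the value was -0.44. Without the second, ANXA4 had 0.51. Of 30 other EF-hand genes, 22 were tested, with 2 called higher and 2 called lower. SPARC, a matrix protein, rose from 86.3 to 138 TPM and RCN2, a protein of the endoplasmic reticulum, rose from 33.8 to 58 TPM, with adjusted P values of 0.144 and 0.0931. Leaving out single libraries moved the log2 fold change of SPARC from 0.35 (without the second control) to 1.09 and that of RCN2 from 0.47 (without the first knockout-labelled library) to 1.01. EFHD2, an actin-binding protein, fell from 91.5 to 42.2 TPM (-1.10 ± 0.09, adjusted P = 0.0118). The fused S100 genes of the epidermis (FLG, HRNR and related genes, 7 in all) did not pass the filter in any comparison.

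When the 6 overexpression libraries were compared with their 2 controls as 1 group, no member was called by limma. Among all 15768 genes tested, 1.93% were called and 0.171% had an adjusted P under 0.05. An unadjusted P under 0.05 was reached by 3 members (6% of all genes), S100A10, S100A11 and S100A16. The groups did not overlap for these 3 only, against 9.87% of all genes, so their differences necessarily had the same sign in all 6 libraries. The median log2 fold change was -0.12 over the 8 members and -0.02 over all genes.

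S100A10 had 399.8 and 389 TPM in the controls and, in the 6 overexpression libraries, a lowest value of 330.1, a mean of 347 ± 12.3 (SD) and a highest value of 361 TPM. The log2 fold change was -0.18 ± 0.07 (adjusted P = 0.705). A library batch is named by the start of the library titles, and all lines of a batch share its control library. All 6 overexpression libraries lay below the control of their batch, by -0.25 to -0.11. Because of the shared controls, such within-batch differences are not independent of one another. S100A11 had 673 and 709 TPM in the controls and 615 ± 27.8 TPM in the 6 libraries, from 582 to 649.9, with a log2 fold change of -0.17 ± 0.07 (adjusted P = 0.829) and within-batch differences of -0.27 to -0.10. S100A16 had 304 and 261 TPM in the controls and 329.9 ± 12.1 TPM in the 6 libraries, from 308 to 342, with a log2 fold change of 0.23 ± 0.08 (adjusted P = 0.676) and within-batch differences of 0.13 to 0.36. S100A3 also lay below the control of its batch in all 6 libraries, by -0.67 to -0.02, although its pooled log2 fold change was -0.28 ± 0.20 (adjusted P = 0.912). For the other 4 members tested the signs were mixed among the 6 libraries. 

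In line 87, S100A3 fell and S100A2 was lower, while in line 79 S100A6 was higher than in lines 86 and 87 and S100A13 was lower than in line 86. The controls are shared by the 3 line comparisons, so differences between lines were tested directly, without the controls.

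S100A2 had 595 and 580.4 TPM in the controls, 642 and 668 TPM in line 79, 566 and 612 TPM in line 86, and 439 and 447 TPM in line 87. Both values of line 87 lay below the other 6. Against the controls, its log2 fold change in line 87 was -0.41 ± 0.06 (adjusted P = 0.0228), a fold of 0.755. Line 87 differed from line 79 by -0.56 ± 0.06 (adjusted P = 0.00319) and from line 86 by -0.41 ± 0.06 (adjusted P = 0.0147). In line 79 the log2 fold change against the controls was 0.16 (adjusted P = 0.181), and in line 86 it was 0.003 (adjusted P = 0.995).

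S100A3 had 13 and 11.9 TPM in the controls, 12.1 and 10.1 TPM in line 79, 12.9 and 11.1 TPM in line 86, and 7.8 and 7.57 TPM in line 87. Here, too, line 87 lay below all other libraries, with a log2 fold change against the controls of -0.63 ± 0.12 (adjusted P = 0.0469, a fold of 0.645). This was the only call among the members in the 3 line comparisons. Without the first control library the value was -0.57, under the fold threshold, with an adjusted P of 0.211. Line 87 differed from line 86 by -0.58 ± 0.12 (adjusted P = 0.0438) and from line 79 by -0.47 ± 0.12 (adjusted P = 0.0618). S100A4, whose entry contains that of S100A3, had 8.62 and 4.93 TPM in line 87 against 7.86 and 6.35 TPM in the controls (-0.10 ± 0.32, adjusted P = 0.918). In line 87, GATA3, an epithelial transcription factor on the marker list, had 6.78 and 6.31 TPM against 17.4 and 13.6 TPM in the controls (-1.12, adjusted P = 0.0158), the only one of 7 epithelial markers tested that was called, and its part in the values of S100A2 and S100A3 was not tested.

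S100A6 had 1896 and 2004 TPM in the controls, 2265 and 2329 TPM in line 79, 1811 and 1985 TPM in line 86, and 1842 and 1816 TPM in line 87. Line 79 lay above the other 6 libraries. Against the controls, line 79 had a log2 fold change of 0.24 ± 0.06 (adjusted P = 0.0724). Line 87 differed from line 79 by -0.33 ± 0.06 (adjusted P = 0.0243) and line 86 from line 79 by -0.28 ± 0.06 (adjusted P = 0.0371). Against line 79, the markers KRT19 (0.62), ZEB1 (0.63) and SNAI2 (-0.98, adjusted P = 0.0739 by limma) were called in line 86. SNAI2 (-1.08, adjusted P = 0.064) and GATA3 (-0.95) were called in line 87 against line 79. Of the epithelial and mesenchymal markers, ZEB1 (-0.99) and GATA3 (-0.88) were called in line 87 against line 86. ZEB1 (0.83) was also called in line 86 against the controls. The part of these markers in the values of the members was not tested. As a share of the members' sum, S100A6 made up 50.3% and 50.5% in line 79 and 44.2% to 46.0% in the other 6 libraries.

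S100A13 showed the opposite order. It had 387 and 399 TPM in the controls, 309 and 354 TPM in line 79, 407 and 456 TPM in line 86, and 416 and 443 TPM in line 87, so that line 79 lay below the rest. Line 86 differed from line 79 by 0.38 ± 0.09 (adjusted P = 0.0414), and line 87 from line 79 by 0.38 ± 0.09 (adjusted P = 0.0504). Against the controls, line 79 had -0.25 ± 0.09 (adjusted P = 0.163).

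S100A10 was lowest in line 87, with 336 and 330.1 TPM, against 354 and 346 TPM in line 79 and 357 and 361 TPM in line 86. Its log2 fold change in line 87 was -0.24 ± 0.05 (adjusted P = 0.0645). S100A11 was lowest in line 79, with 582 and 589 TPM, against 605 and 649.9 TPM in line 86 and 627 and 639 TPM in line 87, and its log2 fold change in line 79 was -0.24 ± 0.06 (adjusted P = 0.059). S100A16 had log2 fold changes of 0.18, 0.23 and 0.27 in lines 79, 86 and 87, and these did not differ from one another beyond their standard errors of 0.09. S100P ranged from 0.0533 to 0.391 TPM in the 6 libraries and was 0 and 0.0368 TPM in the controls.

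**Figure D3:**
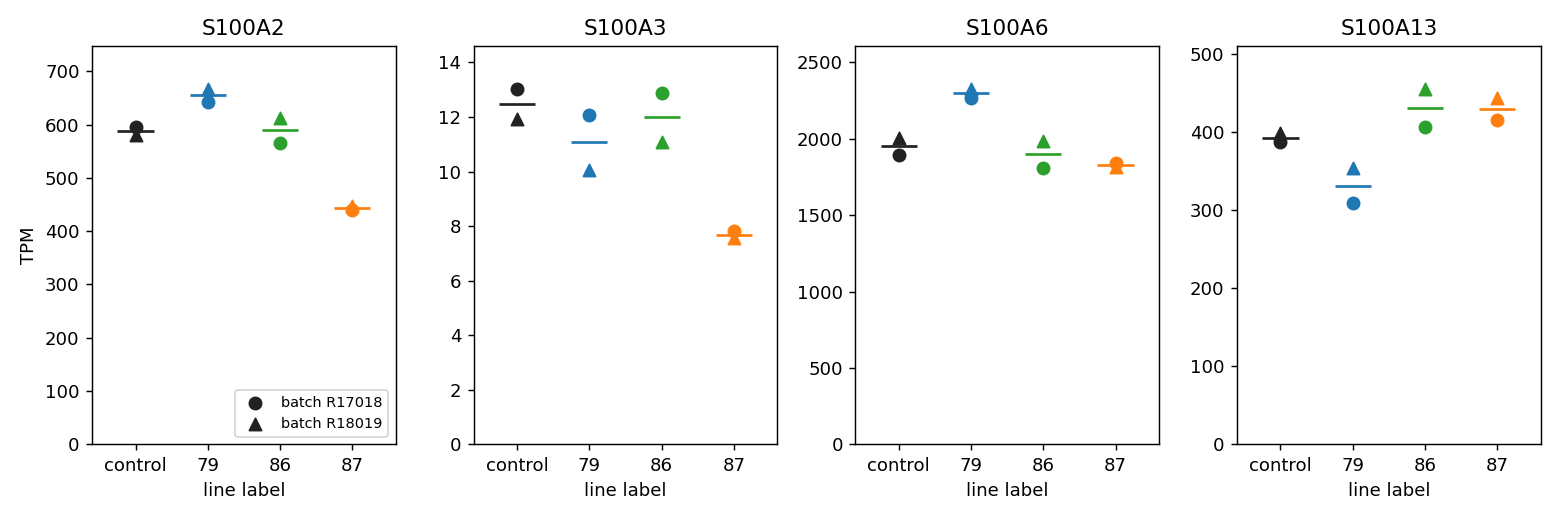
TPM of S100A2, S100A3, S100A6 and S100A13 in the 8 libraries of the overexpression comparison by line label, each axis from 0. Circles and triangles are the libraries of the batches R17018 and R18019, and short lines are means of 2. Line 87 lies lowest for S100A2 and S100A3, and line 79 lies highest for S100A6 and lowest for S100A13.

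No member was called in line 79 or in line 86, where 5 and 2 members had an unadjusted P under 0.05 by limma, and 1 member was called in line 87, where 4 did. Among all genes, the unadjusted P was under 0.05 for 24.1%, 13.5% and 17.8% in lines 79, 86 and 87. The calls among all genes made up 7.95%, 3.6% and 5.13% in the same order, and 3.05% were called lower in line 87. An adjusted P under 0.05 was reached by 0, 0 and 2 members, against 9.91%, 1.96% and 3.68% of all genes. With the library batch as a term in the model, it was reached by 4, 0 and 3 members, against 12.7%, 2.42% and 4.73% of all genes. In the direct comparisons of lines, no member was called, since no difference reached 1.5-fold, and 4 members in line 87 against line 79, 2 in line 87 against line 86 and 3 in line 86 against line 79 had an unadjusted P under 0.05, against 24.4%, 20.5% and 27.3% of all genes. In the same order, 8.7%, 6.46% and 9.8% of all genes were called. An adjusted P under 0.05 was reached by 2 members in each of these comparisons, against 10.5%, 6.41% and 13.5% of all genes, and with the library batch as a term by 4, 2 and 2 members, against 13%, 8.38% and 16.7%. Of the 12 adjusted P values under 0.05 among the members, only that of S100A2 in line 87 against line 79 stayed under it in all alternatives, library omissions included (at most 0.0286).

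Some partners of the S100 members differed between the lines by more than 1.5-fold. In the pooled overexpression comparison, none of the 17 partners and receptors tested was called by limma. Of the 11 annexins tested, only ANXA10 was called there, with means of 1.59 TPM in the controls and 3.12 TPM in the overexpression libraries (0.67 ± 0.14, adjusted P = 0.24). IL1A had a mean of 8.69 TPM in the controls and fell to 3.29 TPM in line 79 (log2 fold change -1.17 ± 0.12, adjusted P = 0.0037), while it rose to 24.2 TPM in line 86 (1.39, adjusted P = 0.006) and to 25.7 TPM in line 87 (1.47, adjusted P = 0.00303). FGF1 fell in line 79 from 12.2 to 5.73 TPM (-0.97 ± 0.12, adjusted P = 0.00577). Of the 17 partners tested, 3 had a log2 fold change above 0 in line 79, against 45% of all genes. Their median was -0.34 there, against -0.03 over all genes. PLAT, the plasminogen activator that binds the complex of S100A10 and annexin A2, rose in line 79 from 82 to 124 TPM (0.60 ± 0.13, adjusted P = 0.0403), and without the second control the value was 0.40. IQGAP1, a scaffold protein, was higher in line 86 than in line 79, with 330.2 against 205 TPM (0.69 ± 0.09, adjusted P = 0.00511).

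Among the annexins, ANXA8 fell in line 79 from 214 to 52.8 TPM (adjusted P = 0.000274) and rose in line 86 to 336 TPM (0.65 ± 0.10, adjusted P = 0.0392), or by 0.50 without its first library. ANXA7 fell in line 79 from 190 to 109 TPM (-0.81 ± 0.11, adjusted P = 0.00837), and ANXA11 was lower in line 79 than in line 87, with 70 against 125 TPM (0.85 ± 0.17 for line 87 against line 79, adjusted P = 0.0288, or 0.58 without the second library of line 79). ANXA2 had 3090 TPM in line 87 and 4947 TPM in line 86 (-0.68 ± 0.11, adjusted P = 0.0203). The ratio of S100A10 to this partner was 7.51 and 7.01 TPM per 100 TPM of ANXA2 in line 86 against 10.2 and 11.4 in line 87 and 8.7 and 10.4 in the controls. Among other EF-hand genes, EFHD2 rose from 209.7 to 365 TPM in line 79 and to 326 TPM in line 87 (0.80 and 0.63, adjusted P = 0.00268 and 0.0111, with 0.55 in line 87 without its first library). NCS1, a neuronal calcium sensor, rose in line 79 from 42.4 to 73.9 TPM (0.79 ± 0.08, adjusted P = 0.00313), and CALU (calumenin) fell there from 204 to 129 TPM (-0.66 ± 0.10, adjusted P = 0.0101, or -0.57 without its first library).

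Of the other genes of the S100 family, S100A1 was at a low level, 8 were near 0 and 3 followed the library batch. The family list held 21 genes, of which 9 were tested in the knockout comparison and 11 in the overexpression comparison. Beside the members, S100A1 had 0.418 to 1.18 TPM in the knockout comparison and 2.18 to 3.15 TPM in the overexpression comparison. S100A5, S100A7, S100A7A, S100A7L2, S100A14, S100B, S100G and S100Z were at 0.561 TPM or below in all 12 libraries. S100A8 and S100A9, which form calprotectin in neutrophils and monocytes, were listed at 0 in the 4 overexpression-comparison libraries whose titles start with R17018. In the 4 libraries that start with R18019, S100A8 had 4.21 TPM in the control and 4.93, 5.11 and 4.19 TPM in lines 79, 86 and 87. S100A9 had 6.79 TPM in that control and 5.13, 8.84 and 6.29 TPM in the 3 lines. S100A12, from the same cells, was listed at 0 in the former 4 libraries and had 0.187 to 0.994 TPM in the latter 4. Thus the 3 genes followed the batch and not the line label. In the same order of batches, the 6 leukocyte markers summed to 0.27 to 1.18 TPM and to 1.7 to 2.3 TPM, with PTPRC at 0 to 0.0132 and at 0.266 to 0.496 TPM, and CD3E at 0 to 0.0516 and at 0.502 to 0.915 TPM. S100A4, which leukocytes also express, was lower in the R18019 library than in the R17018 library of all 4 groups, with 6.35 against 7.86 TPM in the controls, 5.89 against 9.11 in line 79, 3.86 against 6.53 in line 86 and 4.93 against 8.62 in line 87. The part of leukocyte transcripts in the values of the members was not tested. Each group of the overexpression comparison had 1 library in each batch.

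**Figure D4:**
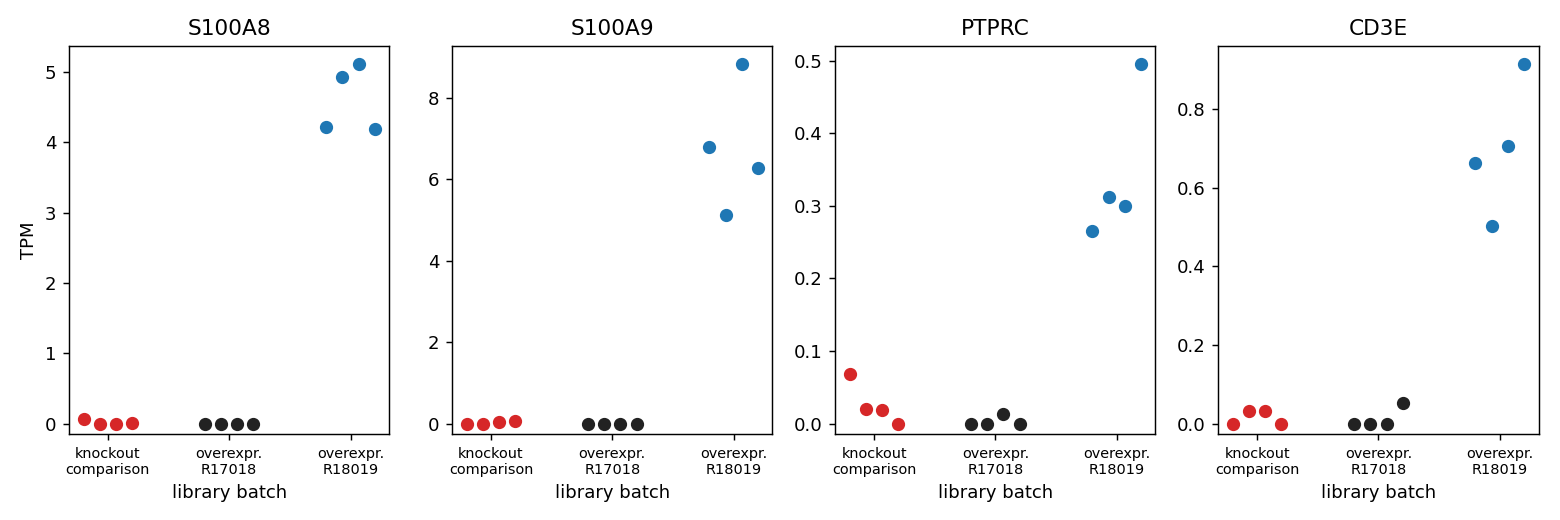
TPM of S100A8, S100A9, PTPRC and CD3E in each of the 12 libraries, by library batch, each batch with 4 libraries. All 4 genes are above 0 in the 4 libraries of the batch R18019 and at or near 0 in the other 8.

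The genes most like the members in pattern were sought for the pair with the largest spread, S100A6 and S100A4, over 12 libraries after the mean of each comparison was subtracted from log2(TPM + 1). Of 13792 genes tested in both comparisons, MARCKS (r = 0.988) and TPM2 (r = 0.976) were among those most like S100A6. The most like S100A4 were GPR157 (r = 0.913), DMAP1 (r = 0.91) and TARS2 (r = 0.902). These libraries share batches and groups, so the correlations are a description of this set.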

How the data were processed

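RNA of T24 cells was sequenced in 12 libraries. The authors used Hisat2 (hg38) for alignment and Stringtie for each library, and the tool versions are not given in the sources used here. The methods state rRNA depletion and the labels polyA RNA. The authors deposited TPM, FPKM and coverage for each gene. No counts were in the files, so DESeq2, named in the methods, was not run. TPM keeps no depth, and the aligned gigabases came from the ratio of coverage to FPKM. Precision rests on the spread of the libraries.

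Differences were tested with limma 3.58.1 in R 4.3.3 (mean-variance trend) on log2(TPM + 1), for genes of at least 1 TPM in 2 libraries. Fold changes on this scale understate those of low genes. Calls needed an unadjusted P below 0.05 together with at least a 1.5-fold change, and adjusted P is Benjamini-Hochberg over all genes tested. The knockout comparison used 4 libraries, the overexpression comparison 8, and the line comparisons a 4-group model of the same 8. U11 was tested by an exact permutation test. The scripts were tested on simulated data. Python 3.11.15, pandas 2.3.3 and matplotlib 3.10.9 were used.

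The members and lists were chosen with earlier results of these data known. From each list, the text names up to 3 called genes per comparison with the largest change and a mean of at least 5 TPM in 1 group, and for the 2 members with the largest spread the 3 most similar genes. One gene that this rule chose and one marker are not reported here. Genes shown beside these (S100A1, S100A5, S100A7, S100A7A, S100A7L2, S100A8, S100A9, S100A12, S100A14, S100B, S100G, S100Z, ANXA10 and markers) were named after their values were seen. The alternatives were a pseudocount of 0.1, FPKM, median ratio and quantile scaling, other filters, no trend, all 12 libraries in 1 fit, rescaled protein-coding genes, adjusted P, no fold threshold, replicate blocks, line means and each library left out.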

Additional observations from a re-analysis of the deposited data

Results flagged for a closer look

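Of 24 differences between line labels tested among the 8 members, 6 had an adjusted P under 0.05 by limma. S100A2 was lower in line 87 than in line 79 (log2 difference -0.56) and than in line 86 (-0.41), in both libraries of line 87. S100A3 was lower in line 87 than in line 86 (-0.58). S100A6 was lower in line 87 than in line 79 (-0.33) and in line 86 than in line 79 (-0.28). S100A13 was higher in line 86 than in line 79 (0.38). With 9 members screened in the 6 overexpression libraries for a single library far from the others, 0 stood apart by Dixon's critical value. Of these 6, only the difference of S100A2 between lines 87 and 79 kept an adjusted P under 0.05 in all alternatives tried.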

How the results depend on the processing

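Of the knockout calls, 3 with TPM, 1 (S100A6) remained with FPKM and 1 with median ratio scaling; 7 members passed with no fold change threshold. Rescaled protein-coding genes left 2, with S100A11 at 0.56. Leaving out single libraries gave 2 to 3, and S100A11 was lost without knockout replicate 1 (0.57). With no fold change threshold, 3 members passed in the overexpression comparison, 5 in line 79, 2 in line 86, 4 in line 87, 4 in line 87 against line 79, 2 in line 87 against line 86 and 3 in line 86 against line 79. In line 87, the 1 call (S100A3) went to 0 with FPKM (-0.55) and to 0 without control replicate 1 (a range of 0 to 1). In line 87 against line 79, the 0 calls became 1 with median ratio scaling (S100A2, -0.59) and ranged from 0 to 1 over libraries left out (S100A2 without replicate 1 of line 79, S100A3 without replicate 3). In line 87 against line 86, they became 1 with a pseudocount of 0.1 (S100A3, -0.63) and ranged from 0 to 1 (S100A3, without replicate 3 of line 86 at -0.68 or replicate 1 of line 87 at -0.60). The cause was not tested. Over the 8 members tested and all comparisons, 1136 alternative values were computed. In 1122 of them the call (by unadjusted P and fold change) was as before, 8 lost it and 6 gained it. The sign changed in 40, all of values that were not past an unadjusted P of 0.05. The adjusted P was less stable: of the 12 values under 0.05, 1 stayed under it in every alternative. The others rose to at most 0.211, with no filter, no mean-variance trend, other scaling or a library left out. Among the differences between lines, S100A13 in line 86 against line 79 had 0.061 with FPKM and 0.0628 with median ratio scaling, S100A6 there had 0.167 with quantile normalization, and each was over 0.05 whichever library was left out (0.0542 to 0.179 and 0.051 to 0.163), as was S100A3 in line 87 against line 86 (0.0523 to 0.2). S100A2 in line 87 had 0.0536 with no trend and 0.0997 to 0.124 without a control library.

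Knockout and control libraries share only the numbers 1 and 2, and their deviations correlated at 0.024, so they were not taken as pairs. With the replicate block the knockout count was 3, and the adjusted P values were 0.0273 for S100A6, 0.0678 for S100A2, 0.0663 for S100A11 and 0.1 for S100A10. In the overexpression comparison the numbers fall in 2 library batches, with correlations of deviations between groups of 0.07 to 0.15. With the replicate block by library batch, the counts were 0 in the overexpression comparison, 0 in lines 79 and 86 and 1 in line 87. In line 79 the adjusted P values then were 0.0342 for S100A6, 0.0475 for S100A10, 0.0231 for S100A11 and 0.0401 for S100A13, and in line 87 0.0366 for S100A10. Between lines they were 0.0264 for S100A3 and 0.0127 for S100A13 in line 87 against line 79.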
